A study of Mus musculus with 20 samples.

Results

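The renin-angiotensin system was examined through 7 genes, Ren1, Agt, Ace, Agtr1a, Enpep, Mme and Atp6ap2, matched by symbol in 2 tables of kidney RNA sequencing counts. All 7 were found among the 26608 genes of the LOY table and among the 30809 genes of the ABT-263 table, and all 7 passed the filter on low counts in both. In LOY animals the blood system lacked its Y chromosome: aged mice had been transplanted with bone marrow that made them Control or LOY. The LOY table held kidneys of 6 Control and 6 LOY animals. The ABT-263 table held kidneys of LOY animals given a control compound (n = 4) or ABT263 (n = 4), an inhibitor of anti-apoptotic BCL-2 family proteins used to kill senescent cells. Every animal of both tables was a transplant recipient, and the labels name no change made to the kidney cells of the hosts. The sources used here do not give strain, sex, age in months, dose, what the Control marrow carried or how the Y chromosome was removed.

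The system controls blood pressure and salt balance. Renin, released by juxtaglomerular cells of the kidney, cuts angiotensinogen to angiotensin I, and angiotensin-converting enzyme (ACE) turns that into angiotensin II. Angiotensin II acts on the type 1 receptor, encoded in mice mainly by Agtr1a, and is broken down or redirected by peptidases of the proximal tubule brush border, among them aminopeptidase A (Enpep) and neprilysin (Mme). Atp6ap2 encodes the prorenin receptor, which is also an accessory subunit of the vacuolar proton pump.

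The sequences just upstream of annotated transcription starts are shown as background. Counts per gene do not show which start was used, and use of these starts in kidney was not tested. RefSeq (GRCm38.p6) gave a start for 6 of the 7 genes, 9 starts in all, and Agtr1a was not among them. The 30 bases from -40 to -11 are printed 5′ to 3′ in lower case, with any TATAAA, the core of a TATA box, in capitals on either strand (TTTATA is its reverse complement). For Ace and Mme the RefSeq start farthest upstream is shown. The GENCODE M21 model of Mme begins further upstream, at base 63241537 of chromosome 3.
Ren1, chr1:133350634-133350663, plus strand: tacatggtgtgTATAAAagaaggctcaggg
Agt, chr8:124569717-124569746, minus strand: accccttgagTATAAAtaagcctgcttggc
Ace, chr11:105967908-105967937, plus strand: tggctgggtTTTATAatccgcagggcggtc
Enpep, chr3:129332760-129332789, minus strand: tcgctccagttcagaaggggcaggcctggg
Mme, chr3:63295171-63295200, plus strand: aaaagaagacattgaaaagaagggaaggag
Atp6ap2, chrX:12587719-12587748, plus strand: cgctcgtgtagcggcgtagttggcgattgg
The renin and angiotensinogen genes each carried TATAAA in the direction of the gene, and Ace carried it on the opposite strand. Of 32851 promoters of the same length, 2.66% held the motif in this window on either strand. Ace has a further, internal start, known for the shorter testis form of the enzyme, and counts per gene do not tell the forms apart.

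Total gene counts per kidney lay between 13332563 and 19386408 in the LOY table and between 14587809 and 20791633 in the ABT-263 table. Each of the 7 genes had at least 408 counts in every kidney of the LOY table and at least 542 in every kidney of the ABT-263 table. The tables were scaled apart and no level is compared between them: mitochondrial genes had 0% of counts in the LOY table and 7.91% to 11.1% in the ABT-263 table. Single libraries stood apart in both. In LOY animal 8 the median log2 deviation of genes with at least 5000 exon bases lay 0.94 below that of genes with at most 2000 (-0.94, against -0.26 to 0.26 in the other 11 kidneys). LOY animal 10 had the lowest proximal tubule markers, with a median log2 deviation of -0.88 over 21 genes (LOY animal 8, -0.42; the other 10 kidneys, -0.13 to 0.38). For the 7 genes and the pathway genes named, values in the LOY table are therefore given with and without these 2 animals. Numbers 8, 9 and 10 occur among the LOY kidneys of this table and again among the control-compound kidneys. Numbers 16, 17 and 18 also occur in both tables. The labels do not say whether kidneys that share a number came from the same animal. Control animal 3 had 77.3 CPM (counts scaled to library size) of the tubular injury gene Havcr1, against 17.6 to 31.7 CPM in the other Control and 74.1 to 137 CPM in the LOY kidneys. In the ABT-263 table, ABT263 animal 16 had 734 CPM of Havcr1 (28.1 to 119 CPM in the other 7 kidneys), 253 CPM of the injury gene Lcn2 (15.4 to 47.7 CPM) and 17765 CPM of Spp1 (1407 to 3129 CPM). These 3 genes were chosen after their values were seen.

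Per length, angiotensinogen was the most abundant of the 7 transcripts in the LOY table. CPM were divided by exon length in kb, the union of all exons annotated for the gene in GENCODE M21. The order depends on this length, and which transcripts the kidney uses was not tested. Mme had the longest, 11542 bases. Before division the Control median of Mme, 144 CPM, lay above that of Agt, 124 CPM. Agt had a median of 68.3 CPM per kb over the 12 kidneys (range 50.7 to 103), and its lowest kidney lay above every kidney of Atp6ap2 (highest 46.9 CPM per kb) but not above the highest of Ace (52.4) and Ren1 (57.3 CPM per kb). Ace (median 43.1), Atp6ap2 (42.3), Ren1 (31.2) and Enpep (29.9 CPM per kb) had overlapping ranges. Agtr1a (median 17.4 CPM per kb) and Mme (10.8 CPM per kb) were lowest and also overlapped each other. In the ABT-263 table, scaled apart, Atp6ap2 had the highest median, 48.0 CPM per kb, and Ren1, Agt, Enpep and Ace spanned 16.7 to 66.6 CPM per kb between them. Mme (15.7) and Agtr1a (14.5 CPM per kb) again came last, their ranges overlapped, and both lay below every kidney of Ace (lowest 20.0 CPM per kb).

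**Figure D1:**
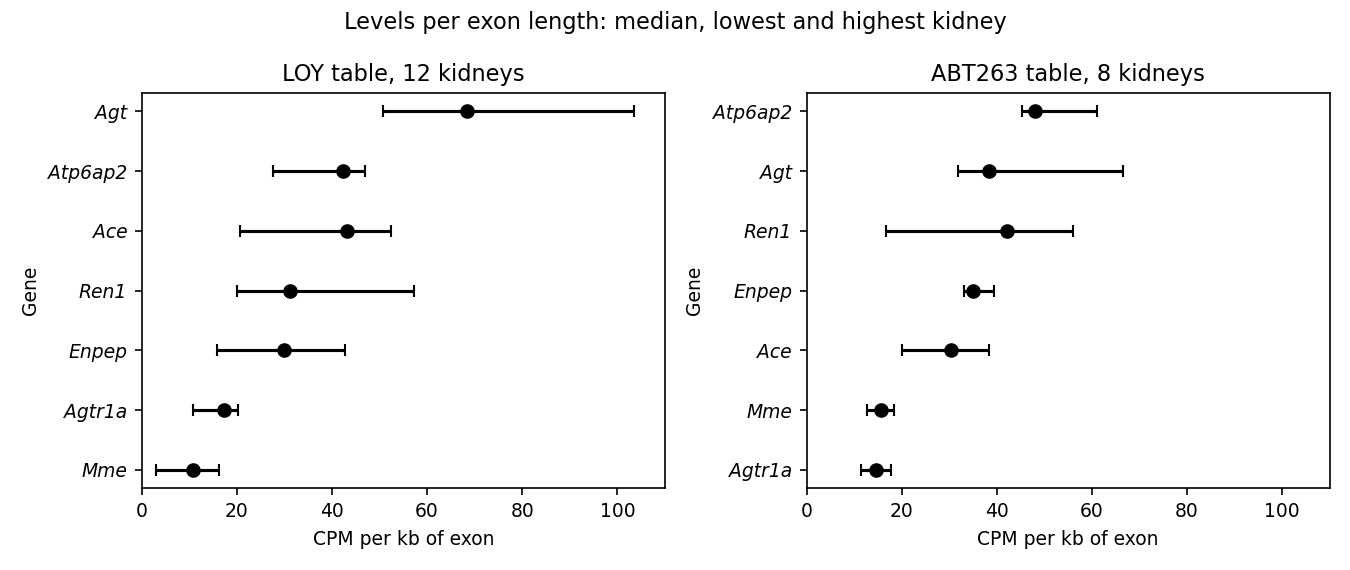
Level of each gene in CPM per kb of exon (x axis) in the LOY table (left, 12 kidneys) and the ABT-263 table (right, 8 kidneys), drawn as the median with a bar from the lowest to the highest kidney. Agt has the highest median on the left (68.3) and Atp6ap2 on the right (48.0), and most ranges overlap.

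The first comparison asks how kidneys differ when the blood system is LOY. None of the 7 genes passed the test. With edgeR 0 of 7 had an adjusted p under 0.05, against 1.18% of the 14978 genes tested (1.11% higher and 0.0601% lower). DESeq2 and voom with quality weights also called 0 of the 7, against 866 and 1062 of the 14978 tested genes. At an unadjusted p under 0.05 there were 4 of 7 (Ren1, Agtr1a, Enpep and Mme), against 22.8% of all tested genes, and without LOY animals 8 and 10 there were 0 of 7 against 14.5%. This count moved both ways with the fit. It was 5 of 7 without Control animal 3 (27.9% of tested genes) and with DESeq2 (25.4%). It was 0 of 7 without Control animal 12 (15.2%). Ren1 and Agt had positive log2 fold changes, and the receptor, the prorenin receptor and the peptidases had negative ones, with a median of -0.26 over the 7 (0.02 over all tested genes). In whole tissue, fewer cells of a type and less RNA per cell cannot be told apart. For none of the 7 did the LOY and Control values separate fully, which 2.02% of tested genes did (1.56% higher and 0.461% lower in LOY).

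Ren1 encodes renin, the enzyme that starts the cascade. Its level ran from 33.3 to 60.3 CPM in Control kidneys (median 48.8) and from 48.8 to 95.0 CPM in LOY kidneys (median 57.6). LOY animals 10 (95.0 CPM), 8 (73.7 CPM) and 18 (61.2 CPM) lay above every Control kidney, and the other 3 lay within the Control range. The means were 46.7 ± 10.1 and 63.8 ± 17.8 CPM (SD, n = 6 each). The log2 fold change was 0.45 ± 0.18 (SE, edgeR adjusted p = 0.178). Without LOY animals 8 and 10 it was 0.18 ± 0.14 (edgeR adjusted p = 0.561). Some mouse strains carry a further renin gene, Ren2, whose reads can be mistaken for Ren1. Ren2 was among the 24 other angiotensin enzymes and receptors listed, and no value for it is reported here.

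Agt encodes angiotensinogen, the substrate of renin, which the proximal tubule makes as well as the liver. It ran from 109 to 158 CPM in Control kidneys (median 124) and from 95.8 to 196 CPM in LOY kidneys (median 143). The LOY kidneys bracketed the Control range, with animals 8 (196 CPM) and 9 (170 CPM) above it and animal 10 (95.8 CPM) below it. LOY against Control gave a log2 fold change of 0.14 ± 0.16 (edgeR adjusted p = 0.579), and 0.13 ± 0.12 without LOY animals 8 and 10 (edgeR adjusted p = 0.641). Without animal 8 alone it was 0.04 and without animal 10 alone 0.23. The largest and the smallest Agt value of the table thus both belonged to LOY kidneys.

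Ace encodes the enzyme that makes angiotensin II, found in kidney on endothelium and on the proximal tubule brush border. Control kidneys held 204 to 277 CPM (median 236) and LOY kidneys 109 to 251 CPM (median 182). LOY animals 10 (109 CPM), 8 (147 CPM) and 9 (153 CPM) lay below every Control kidney, while LOY animals 5, 14 and 18 lay within the Control range. This gave a log2 fold change of -0.38 ± 0.18 (edgeR adjusted p = 0.220), and -0.19 ± 0.13 without LOY animals 8 and 10 (edgeR adjusted p = 0.494). Among the animals numbered above 10 it was -0.09 ± 0.10 (5 Control and 2 LOY kidneys; edgeR adjusted p = 0.737).

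Mme encodes neprilysin, a brush border peptidase that turns angiotensin I into angiotensin 1-7. It had the most negative change of the 7. Its level ran from 86.7 to 187 CPM in Control kidneys (median 144) and from 34.4 to 136 CPM in LOY kidneys (median 99.8), so that all 6 LOY kidneys lay below the Control median. LOY animals 8 (34.4 CPM), 10 (64.1 CPM) and 9 (83.8 CPM) lay below every Control kidney; Control animal 3 was the lowest of its own group at 86.7 CPM. The groups differed by a log2 fold change of -0.60 ± 0.28 (edgeR adjusted p = 0.214). It was -0.32 ± 0.19 without LOY animals 8 and 10 (edgeR adjusted p = 0.457) and -0.22 ± 0.14 among the animals numbered above 10 (edgeR adjusted p = 0.514).

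Enpep encodes aminopeptidase A, which trims angiotensin II to angiotensin III. Control kidneys held 126 to 201 CPM (median 146) and LOY kidneys 74.5 to 146 CPM (median 121). LOY animals 8 (74.5 CPM), 9 (113 CPM) and 5 (117 CPM) lay below every Control kidney. As a log2 fold change this was -0.35 ± 0.16 (edgeR adjusted p = 0.205), and -0.25 ± 0.13 without LOY animals 8 and 10 (edgeR adjusted p = 0.379). Among the animals numbered above 10 it was -0.12 ± 0.12 (edgeR adjusted p = 0.702).

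Agtr1a, the angiotensin II receptor, ran from 46.5 to 56.6 CPM in Control kidneys (median 49.7) and from 30.2 to 51.0 CPM in LOY kidneys (median 40.4). Animals 8, 9, 10 and 18 of the LOY group lay below every Control kidney, at 30.2 to 40.8 CPM, and animals 5 and 14 did not. The Control values were tight (50.5 ± 3.72 CPM, SD, n = 6) beside the LOY values (42.1 ± 7.79 CPM). Its log2 fold change was -0.26 ± 0.12 (edgeR adjusted p = 0.210), and -0.17 ± 0.10 without LOY animals 8 and 10 (edgeR adjusted p = 0.445).

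Atp6ap2, the prorenin receptor, had the log2 fold change nearest to 0. Its range was 105 to 123 CPM in Control kidneys and 72.1 to 123 CPM in LOY kidneys, and LOY animal 8 was the one far value (72.1 CPM, next lowest 104 CPM in animal 10, just under every Control kidney). The log2 fold change was -0.11 ± 0.11 (edgeR adjusted p = 0.548) and -0.02 ± 0.07 without LOY animals 8 and 10 (edgeR adjusted p = 0.924). It was 0.05 ± 0.08 among the animals numbered above 10, so its sign was not settled.

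**Figure D2:**
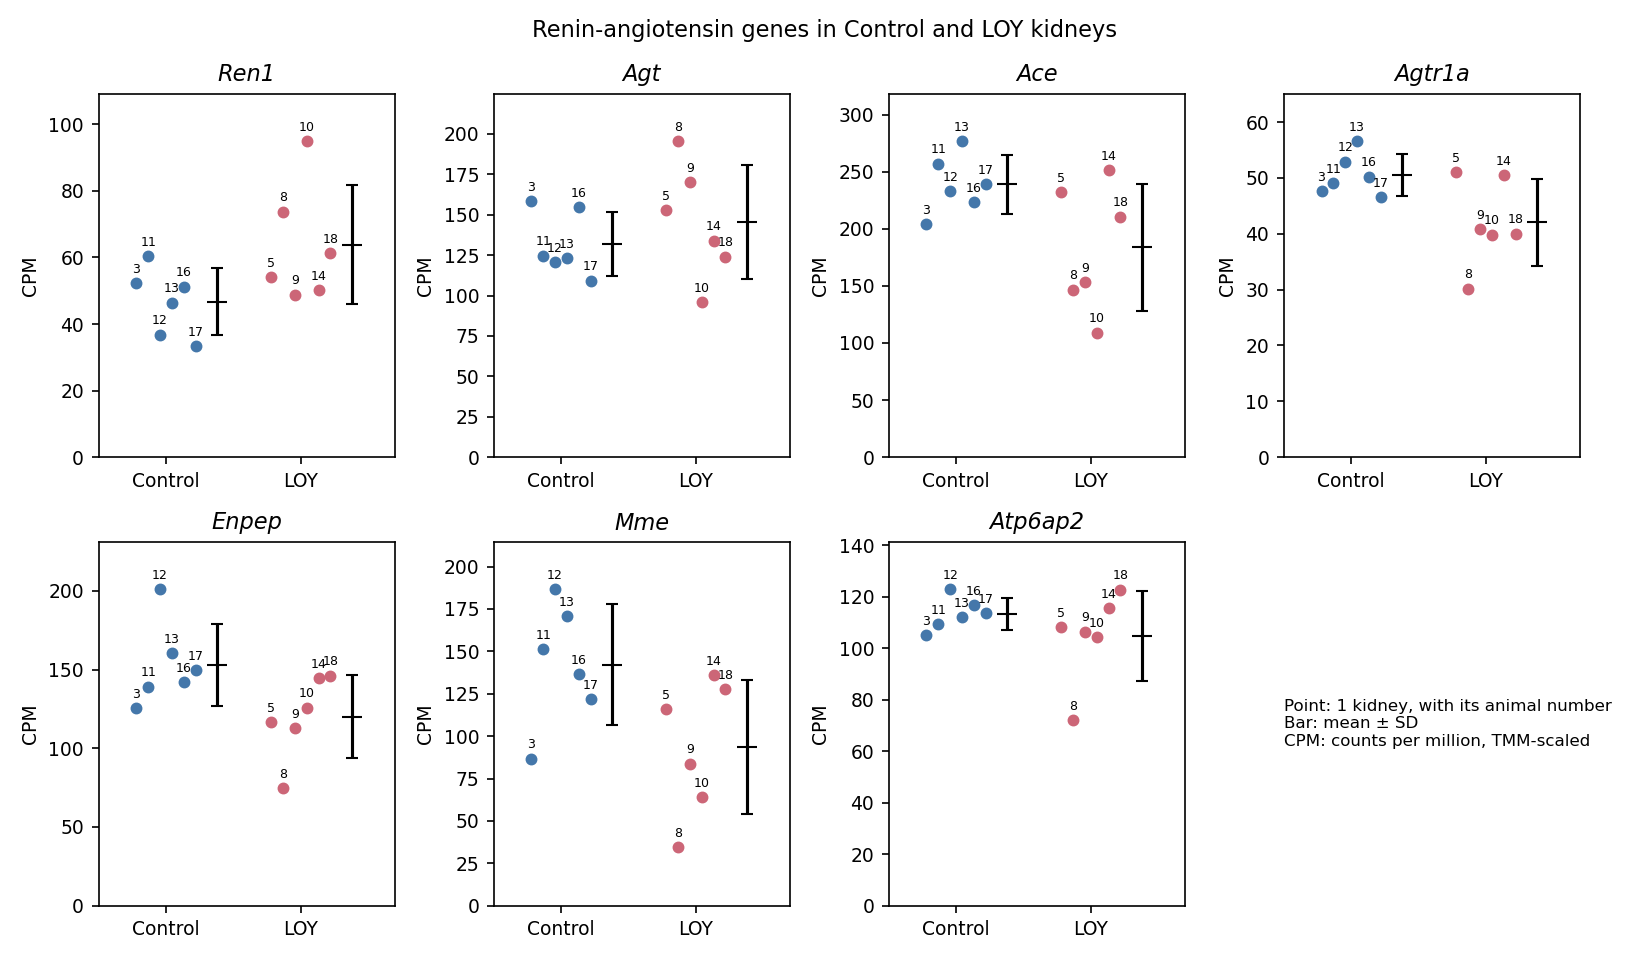
CPM of each gene (y axis, from 0) in every Control and LOY kidney, each point labelled with its animal number, with the mean and SD of the group as a bar. LOY animals 8 and 10 hold the 2 highest Ren1 values (73.7 and 95.0 CPM) and the 2 lowest Mme values (34.4 and 64.1 CPM), and no gene separates the groups.

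**Figure D3:**
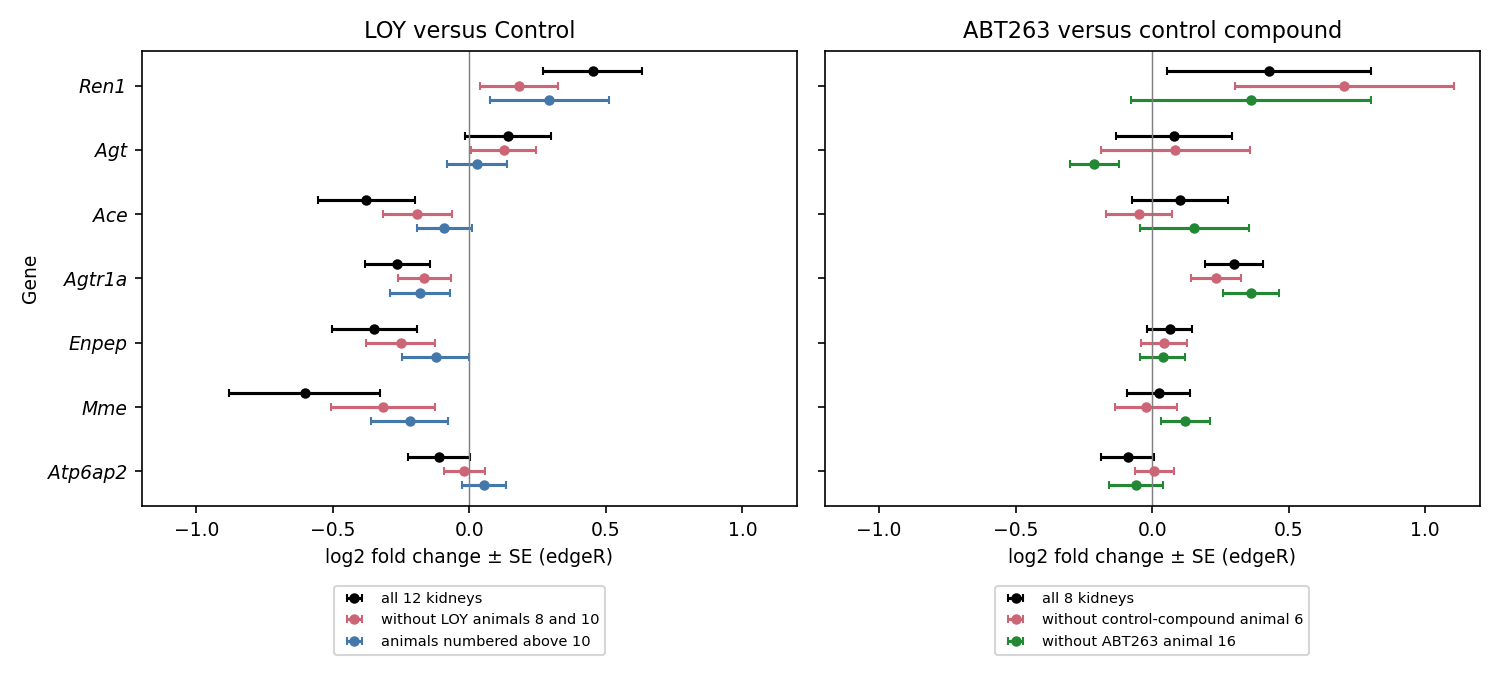
log2 fold change with its SE (x axis) of each gene for LOY against Control (left) and ABT263 against the control compound (right), with all kidneys and with the kidneys named in the keys left out. On the left the Mme value moves from -0.60 to -0.32 without LOY animals 8 and 10, and on the right Agt moves from 0.08 to -0.21 without ABT263 animal 16.

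In LOY animal 8 the deviations of the 7 genes from their means over the table differed widely. Mme, with 11542 exon bases the longest, had a log2 deviation of -1.65 there, and Enpep (4706 bases) had -0.84. Agtr1a (2786 bases), Atp6ap2 (2618 bases) and Ace (5287 bases) had -0.60, -0.59 and -0.48. Ren1 (1657 bases) and Agt (1891 bases), the shortest, had 0.47 and 0.52. In LOY animal 10, where long and short genes were level (-0.03), the pattern was another: Ren1 stood at 0.83, Ace at -0.91, Mme at -0.75 and Agt at -0.50, with the other 3 between -0.20 and -0.05. The part of transcript length in the group differences was not tested.

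**Figure D4:**
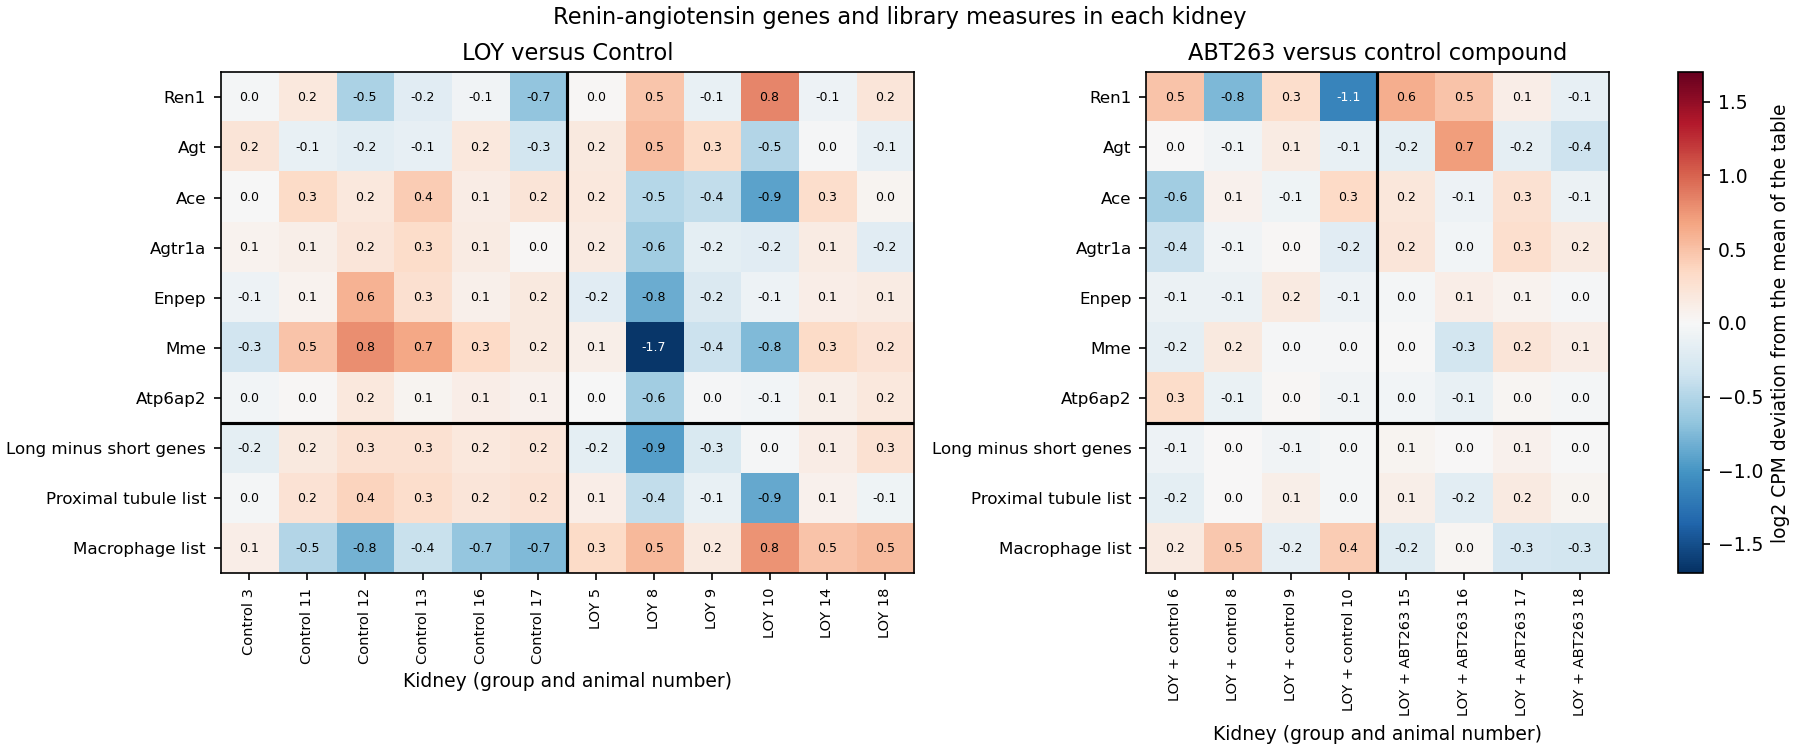
log2 CPM deviation of each gene from its mean over the table (colour and printed value) in each kidney, above 3 measures of the library: long minus short genes, the median of the proximal tubule list and the median of the macrophage list. In the LOY table Mme in LOY animal 8 is the deepest value (-1.65) and coincides with the lowest long minus short value (-0.94).

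Some of the genes also varied together between kidneys of one group. Correlations were taken over the 12 kidneys of the LOY table on log2 deviations from the group means, for 21 pairs. Of these, 11 had a positive r, and Ren1 had a negative r with each of the other genes. All genes of a pair come from the same libraries, so a library that stands apart moves both. Of the 21 pairs, 8 had an adjusted p for r under 0.05 by permutation (100000 resamples, two-sided). Permutation mixed the kidneys of both groups, although LOY values of most genes spread more widely. The 2 farthest kidneys named below are those farthest from the median of the first-named gene of a pair. The second gene had no part in that choice. Their absolute r was at least 0.67, a value that 16.7% of all pairs among 14395 genes (mean CPM of 1 or more) also reached. The closest was Enpep with Atp6ap2 (r = 0.91, rho = 0.80; permutation adjusted p = 0.00126 for r and 0.0182 for rho; r = 0.87 without the 2 farthest kidneys). Enpep with Mme had r = 0.87 and rho = 0.72 (permutation adjusted p = 0.00252 and 0.0381; r = 0.73 without the 2 farthest). Ace with Mme had r = 0.73 and rho = 0.89 (permutation adjusted p = 0.0327 and 0.00483; r = 0.77 without the 2 farthest). Agt went against Enpep (r = -0.67, rho = -0.76; permutation adjusted p = 0.0469 and 0.0256; r = -0.63 without the 2 farthest). The other 4 pairs past the threshold had lower values without the 2 farthest kidneys: r went from 0.89 to 0.68 for Mme with Atp6ap2, from 0.84 to 0.67 for Agtr1a with Mme, from 0.69 to 0.52 for Agtr1a with Enpep and from 0.73 to 0.34 for Agtr1a with Atp6ap2. Without LOY animals 8 and 10 these were 0.71, 0.56, 0.28 and 0.01, so that the relations of Agtr1a with Enpep and with Atp6ap2 rested on those animals. In the same order rho was 0.80, 0.78, 0.49 and 0.59 (permutation adjusted p = 0.0182, 0.0204, 0.209 and 0.126). By rank, Agtr1a with Enpep and Agtr1a with Atp6ap2 thus did not pass. Ren1 and Agt, enzyme and substrate, had r = -0.10 and rho = 0.17 (permutation adjusted p = 0.808 and 0.637; r = 0.27 without the 2 farthest).

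The nearest of 14395 genes to each of the 7, by the same r over 12 kidneys, are given as a description; genes under a mean of 1 CPM were not considered. For Mme they were Lrrk2 (0.99), Tmem106b (0.98) and Pcdh17 (0.98). For Atp6ap2 they were Pdpk1 (0.99), 2900097C17Rik (0.99) and Cog6 (0.99), and for Enpep Spg11, Slain2 and Itpr1 (0.96 each). For Ace they were Sipa1l1 (0.97), the lysosomal fucosidase Fuca2 (0.97) and Ldhd (0.96), and for Agtr1a Gm16039 (0.97) and Impa1 (0.95). For Agt they were 3110056O03Rik (0.97), Dnttip1 (0.96) and 2310010J17Rik (0.96). Ren1 had the weakest best match, Mcm3 of the DNA replication helicase (0.91), followed by Ptprn (0.91) and Ccdc65 (0.89). Over the 3 nearest genes of each of the 7, the values without LOY animals 8 and 10 lay between 0.78 and 0.97.

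The rest of the pathway was read from fixed lists. Of 17 tested angiotensin enzymes and receptors outside the 7, edgeR, DESeq2 and voom each called 0 (2 at an unadjusted p under 0.05 with edgeR; median log2 fold change -0.07). Klk1, the tissue kallikrein that frees kinins, had 1417 ± 184 CPM in Control and 1892 ± 460 CPM in LOY kidneys (0.42 ± 0.16; edgeR adjusted p = 0.168), and 0.19 ± 0.12 without LOY animals 8 and 10. Igf2r, which can bind prorenin, had -0.76 ± 0.37 (edgeR adjusted p = 0.227), and -0.50 ± 0.21 without them. The other angiotensin receptors were near the floor: Agtr1b had 7 counts in all Control kidneys together and 25 in all LOY kidneys, and Agtr2 had 19 and 12. The mast cell chymase gene Cma1 had 1 and 0 counts, and the Mas-related receptor gene Mrgprd and the cathepsin G gene Ctsg had 0 in all 12 kidneys. Mas1, the angiotensin 1-7 receptor, was detected at 3.67 ± 1.33 and 2.63 ± 1.58 CPM (-0.48 ± 0.51; edgeR adjusted p = 0.569), with a log2 fold change of -0.10 without LOY animals 8 and 10.

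Renin cell and vessel wall genes had 0 of 14 past the threshold with edgeR, DESeq2 and voom (1 at an unadjusted p under 0.05 with edgeR; median 0.04). Akr1b7, an aldo-keto reductase made with renin by juxtaglomerular cells, had a log2 fold change of 0.62 ± 0.29 (edgeR adjusted p = 0.219), and 0.29 ± 0.29 without LOY animals 8 and 10. Acta2, smooth muscle actin, had 0.59 ± 0.25 (edgeR adjusted p = 0.188), and 0.40 ± 0.28 without them. Of the 4 tested macula densa genes edgeR, DESeq2 and voom called 0, and 0 had an unadjusted p under 0.05 with edgeR; Ptgs2, encoding cyclooxygenase-2, had 0.58 ± 0.31 (edgeR adjusted p = 0.263), and 0.59 ± 0.34 without them. Aldosterone response genes had 0 of 16 past the threshold with edgeR and 11 negative (median -0.21, and -0.07 without LOY animals 8 and 10). Of the 16, 4 had an unadjusted p under 0.05, against 22.8% of tested genes. DESeq2 called 1 of them lower and voom 3, against 866 and 1062 tested genes called in either direction. Klhl3, an adaptor that marks WNK kinases for degradation, had the smallest p at -1.10 ± 0.36 (edgeR adjusted p = 0.133), followed by Wnk1 (-0.45 ± 0.15; edgeR adjusted p = 0.140) and Wnk4 (-0.29 ± 0.11; edgeR adjusted p = 0.167). Without LOY animals 8 and 10 these were -0.80 ± 0.28, -0.29 ± 0.10 and -0.35 ± 0.10. Klhl3 was the gene called by DESeq2 (adjusted p = 0.0377).

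Genes of fibrosis, oxidants and inflammation that angiotensin II is known to induce were the pathway list with genes past the threshold in edgeR. Of 11, 3 rose and 0 fell, against 1.11% of tested genes that rose, and 10 were positive (median 0.82). The count depended on the fit. Without LOY animals 8 and 10 it was 0 with edgeR (10 at an unadjusted p under 0.05, against 14.5% of tested genes). With all kidneys DESeq2 called 8 higher and 1 lower and voom 9 higher and 1 lower. Over all 14978 tested genes DESeq2 called 866 (599 higher) and voom 1062 (689 higher). Spp1, encoding osteopontin, rose from 1659 ± 431 to 3935 ± 1580 CPM (1.25 ± 0.24; edgeR adjusted p = 0.0330). Cybb, the catalytic subunit of the phagocyte NADPH oxidase, rose from 11.0 ± 0.917 to 17.3 ± 2.84 CPM (0.66 ± 0.13; edgeR adjusted p = 0.0343), and the chemokine Ccl2 rose from 4.57 ± 2.49 to 11.5 ± 1.38 CPM (1.33 ± 0.28; edgeR adjusted p = 0.0375). Without LOY animals 8 and 10 the log2 fold changes were 0.99 for Spp1, 0.65 for Cybb and 1.39 for Ccl2 (edgeR adjusted p = 0.0601, 0.0615 and 0.0677). These genes have many other inducers, and Cybb is a gene of macrophages. Beside them, all 11 macrophage markers were positive, as were 52.3% of tested genes. With edgeR 5 of them rose, while DESeq2 and voom called 10 each. The edgeR count was 3 without LOY animals 8 and 10 or without Control animal 13, 2 without Control animal 11 or 12 and 1 without LOY animal 10. It was 9 when Control animal 3 was left out. It was 0 without Control animal 16 or 17 or with animal number above 10 as a term. In each of these fits 10 macrophage markers had an unadjusted p under 0.05, against 7.97% to 27.9% of tested genes. The summed macrophage level was 243 to 398 CPM in Control and 449 to 606 CPM in LOY kidneys, with none at 0. The part of macrophages in these rises was not tested. Leaving out 1 kidney moved the count in the angiotensin II list from 3 to 0 for Control animals 11, 12, 13, 16 and 17 and LOY animal 10, to 1 for LOY animal 14, to 2 for LOY animals 5 and 9, to 4 for LOY animal 8 and to 8 for Control animal 3, and left it at 3 for LOY animal 18.

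Markers of the cells that make these transcripts were set beside them. All 21 proximal tubule genes were negative, where 52.3% of tested genes were positive (median -0.36, 0 past the threshold with edgeR). At an unadjusted p under 0.05 there were 10 of 21, against 22.8% of tested genes. DESeq2 called 4 lower and voom 6, against 866 and 1062 of the 14978 tested genes called in either direction. Without LOY animals 8 and 10 all 21 were again negative, with a median of -0.22 and 0 past the threshold with edgeR. In that fit 9 had an unadjusted p under 0.05, against 14.5% of tested genes. The list had summed levels of 22495 to 29518 CPM in Control and 11932 to 24462 CPM in LOY kidneys and none at 0. Endothelial markers had a median of 0.04 over 10 genes, and -0.10 without LOY animals 8 and 10 (0 past the threshold with edgeR, 1 at an unadjusted p under 0.05) and summed levels of 498 to 778 and 487 to 891 CPM. B cell markers summed to 2.81 to 9.74 CPM in Control and 4.66 to 17.6 CPM in LOY kidneys. Neutrophil genes summed to 2.93 to 7.16 and 4.17 to 10.2 CPM, podocyte genes to 287 to 603 and 354 to 688 CPM, and androgen-dependent genes to 19562 to 25996 and 14080 to 54466 CPM. Fat and adrenal cortex, tissues that border the kidney, summed to 33.6 to 269 and 33.3 to 176 CPM, and to 3.99 to 10.1 and 5.40 to 9.89 CPM. The aldosterone synthase gene Cyp11b2 was at 0 in all 12 kidneys. The part of the proximal tubule in the lower Ace, Enpep and Mme values was not tested.

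The second table asked what a senolytic changes in kidneys of LOY animals. With ABT263 against the control compound, edgeR called 0 of the 7 genes, and 0% of the 16956 genes tested (1002 at an unadjusted p under 0.05; 44 called by DESeq2 and 11 by voom, none of them among the 7). Agtr1a alone of the 7 had an unadjusted p under 0.05 (5.91% of tested genes did). Animal numbers were 6 to 10 with the control compound and 15 to 18 with ABT263, so number and treatment cannot be told apart. Fully separated groups occurred for 4.29% of tested genes (2.04% higher and 2.25% lower with ABT263) and for 0 of the 7.

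Agtr1a had 31.7, 39.1, 41.3 and 35.6 CPM in control-compound animals 6, 8, 9 and 10. It had 47.1, 39.6, 49.7 and 45.4 CPM in ABT263 animals 15, 16, 17 and 18. Of the ABT263 kidneys 3 lay above every control-compound kidney, and animal 16 lay within their range. ABT263 against the control compound gave a log2 fold change of 0.30 ± 0.10 (SE; edgeR adjusted p = 0.728), and 0.36 ± 0.10 without ABT263 animal 16 (edgeR adjusted p = 0.362).

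Ren1 had 84.1, 35.6, 74.2 and 27.7 CPM in control-compound animals 6, 8, 9 and 10. In ABT263 animals 15, 16, 17 and 18 it had 92.8, 84.7, 65.2 and 54.8 CPM. The control-compound kidneys split into 2 low and 2 high values, and the ABT263 values ran across the high pair. Its log2 fold change, 0.43 ± 0.37 (edgeR adjusted p = 0.886), had the widest SE of the 7, and ran from 0.20 without control-compound animal 10 to 0.70 without animal 6.

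Agt had 77.4, 74.3, 84.6 and 70.7 CPM with the control compound and 69.0, 126, 69.2 and 60.2 CPM with ABT263, in the same order of animals. ABT263 animal 16, the kidney with 734 CPM of Havcr1, was high, and the other 3 lay below every control-compound kidney. Over all 8 kidneys the log2 fold change was 0.08 ± 0.21 (edgeR adjusted p = 0.971), and -0.21 ± 0.09 without animal 16 (edgeR adjusted p = 0.558).

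Ace had 106, 169, 152 and 203 CPM with the control compound and 182, 150, 192 and 150 CPM with ABT263. All ABT263 kidneys lay within the control-compound range, which was set by animals 6 and 10, and the log2 fold change was 0.10 ± 0.18 (edgeR adjusted p = 0.950). Without control-compound animal 6 the value was -0.05 ± 0.12 (edgeR adjusted p = 0.920).

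Mme ran from 164 to 204 CPM with the control compound and from 147 to 212 CPM with ABT263 (0.02 ± 0.12; edgeR adjusted p = 0.989), and its value was 0.12 ± 0.09 without ABT263 animal 16. Enpep ran from 156 to 185 CPM and from 164 to 181 CPM (0.07 ± 0.08; edgeR adjusted p = 0.924). Atp6ap2 ran from 120 to 160 CPM, control-compound animal 6 being the high value, and from 118 to 132 CPM (-0.09 ± 0.10; edgeR adjusted p = 0.909). The ranges overlapped for all 3 genes, with SDs of 8.37 to 14.5 CPM for Enpep and 16.5 to 28.1 CPM for Mme.

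**Figure D5:**
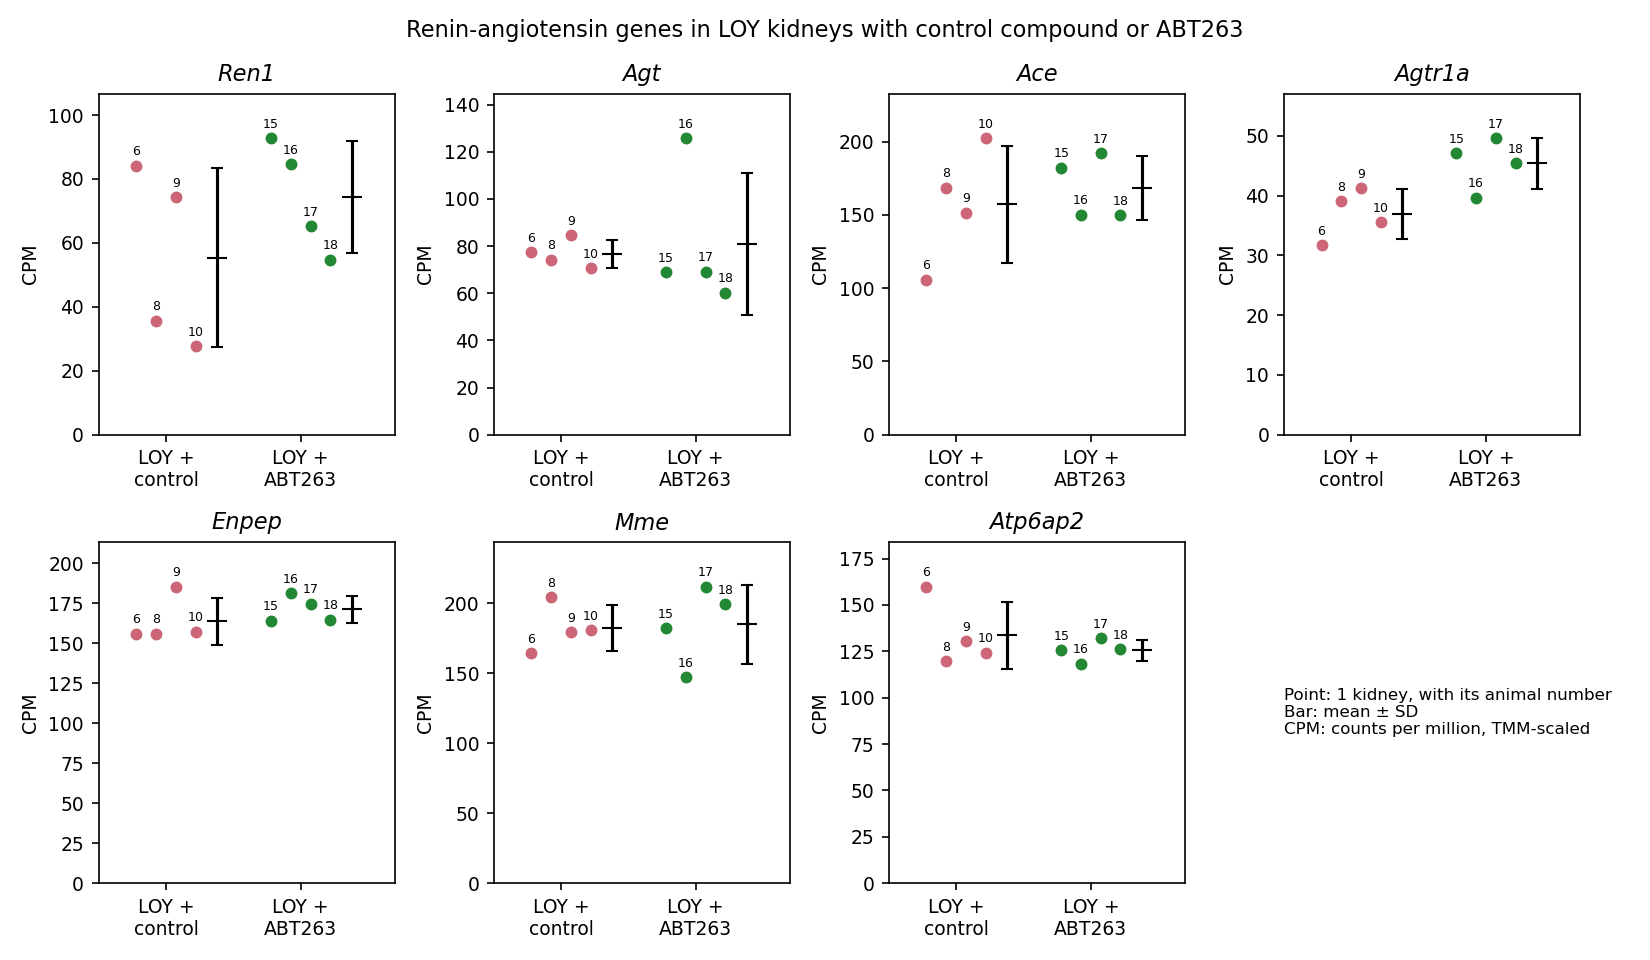
CPM of each gene (y axis, from 0) in every LOY kidney given the control compound or ABT263, each point labelled with its animal number, with the mean and SD of the group as a bar. For Agtr1a 3 of the 4 ABT263 kidneys lie above all control-compound kidneys, and for every gene the groups overlap.

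DESeq2 and voom called 0 in each pathway list of the ABT-263 table, as did edgeR. Of 17 tested angiotensin enzymes and receptors outside the 7, edgeR called 0 (2 at an unadjusted p under 0.05; median 0.04). Klk1 had the smallest p, with 963 ± 83.0 CPM with the control compound and 708 ± 124 CPM with ABT263 (-0.44 ± 0.13; edgeR adjusted p = 0.662). In the renin cell and vessel wall list 0 of 14 passed (2 at an unadjusted p under 0.05), with Acta2 at -0.45 ± 0.11 (edgeR adjusted p = 0.657) and Gja5, encoding the connexin that couples juxtaglomerular cells, at 0.57 ± 0.25 (edgeR adjusted p = 0.827). Of 5 macula densa genes 0 passed and 0 had an unadjusted p under 0.05. Of 16 aldosterone response genes 0 passed and 1 had an unadjusted p under 0.05: Tsc22d3, the glucocorticoid-induced leucine zipper, at -0.57 ± 0.13 (edgeR adjusted p = 0.566). Of 11 angiotensin II responsive genes 0 passed (3 at an unadjusted p under 0.05), among them Ctgf (-0.45 ± 0.13; edgeR adjusted p = 0.657), Cybb (-0.28 ± 0.11; edgeR adjusted p = 0.803) and Ccl2 (-0.65 ± 0.26; edgeR adjusted p = 0.816). Macrophage markers summed to 431 to 709 CPM with the control compound and 393 to 436 CPM with ABT263, with 0 of 11 past the threshold with edgeR. Of these, 6 had an unadjusted p under 0.05, against 5.91% of tested genes, and DESeq2 called 1 lower. Proximal tubule markers summed to 16673 to 19243 and 14281 to 20131 CPM. All 10 endothelial markers were positive (median 0.16; 0 past the threshold with edgeR, DESeq2 and voom, and 0 at an unadjusted p under 0.05 with edgeR), with summed levels of 602 to 666 and 561 to 809 CPM. Without ABT263 animal 16 their median was 0.28 and 7 had an unadjusted p under 0.05, against 8.59% of tested genes in that fit. All 5 podocyte markers were negative (median -0.19; 0 past the threshold with edgeR, DESeq2 and voom, 2 at an unadjusted p under 0.05 with edgeR), with summed levels of 477 to 580 and 431 to 502 CPM. None of the endothelial or podocyte markers was at 0. Their part in the Agtr1a and Ace values was not tested.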

How the data were processed

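Total RNA of kidneys was extracted with QIAzol and RNeasy and sequenced (Illumina NovaSeq X), as the labels' protocols state. Gene counts were deposited as whole numbers; the submitters' processing notes name mm10. Aligner, counter, annotation and strand: not given in the sources used here. Reads without a gene (0.223% to 0.401%, LOY table) were left out. Each table was fitted alone with edgeR 4.0.16 in R 4.3.3 (TMM, filterByExpr with a minimum count of 10 and total of 15, robust quasi-likelihood F test, Benjamini-Hochberg over all tested genes, threshold 0.05). SEs were derived from the F statistic (absolute log2 fold change divided by its root). CPM use TMM-scaled totals; log2 deviations use a prior count of 2. DESeq2 1.42.0, voom with quality weights in limma 3.58.1, other scalings and filters and leaving out each kidney were alternatives. For LOY, animal number above 10 as a term and the animals numbered above 10 alone were further alternatives. Leaving out LOY animals 8 and 10 was added after the data were seen. Replicates differed by at least 3.61 times the Poisson expectation (median over genes). The scripts were tested on simulated data. The 7 genes, the lists and the alternatives were chosen with earlier results of these data known. Named genes are the 7, the list genes past the threshold, up to 3 of smallest p per list, not all of them printed (some are not reported here), and the 3 nearest to each of the 7; other pathway genes were named after their values were seen. In GENCODE M21 other models overlap Ace and Enpep on the opposite strand and Agtr1a on the same strand, so their counts may include such reads. Havcr1 and Lcn2 were looked at after the values were seen, as were list counts by DESeq2, voom and left-out kidneys. Adgre1 and Ctgf were matched through older symbols. Protein and enzyme activity were not analysed here.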

Additional observations from a re-analysis of the deposited data

Results flagged for a closer look

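Atp6ap2 in LOY animal 8 stood far below the other LOY kidneys, at 72.1 CPM against 104 CPM for the next, a gap of 0.695 of the group's range where 0.625 is the critical value for 6 samples. That kidney also had the lowest long minus short gene value of its table (-0.94). Enpep in control-compound animal 9 stood above the other 3 kidneys of its group, at 185 CPM against 157 CPM for the next, a gap of 0.952 of the range where 0.829 is the critical value for 4 samples. Chance alone flags about 1 in 20 groups by this measure, and 28 groups were examined.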

How the results depend on the processing

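None of the 7 genes passed in any of 22 other settings for LOY or 15 for ABT263. For LOY, signs held for 6 genes: Ren1 0.18 to 0.54, Agt 0.00 to 0.23, Ace -0.49 to -0.09, Agtr1a -0.34 to -0.15, Enpep -0.42 to -0.12 and Mme -0.74 to -0.22; Atp6ap2 turned to 0.052 above number 10 alone. With ABT263, voom turned Agt to -0.11 and Atp6ap2 to 0.0098. Leaving out each kidney moved Agt from -0.21 (without ABT263 animal 16) to 0.20, Ace from -0.048 (without control-compound animal 6) to 0.25, Mme from -0.048 (without ABT263 animal 17) to 0.12 and Atp6ap2 from -0.14 to 0.0079 (without control-compound animal 6); Mme was also below 0 without control-compound animal 6 (-0.02) and ABT263 animal 18 (-0.01). Genes past the threshold numbered 176 for LOY, 105 with library totals alone, 866 with DESeq2 and 1062 with voom. They numbered 0 with animal number above 10 as a term (edgeR, 1194 at an unadjusted p under 0.05). Most Control and few LOY kidneys had a number above 10, so that term overlaps with the group. There were 451 above number 10 alone and 29 without LOY animals 8 and 10. When each kidney was left out there were 0 (Control animals 16 and 17, with 2870 and 2611 at an unadjusted p under 0.05) to 607 (Control animal 3). For ABT263 they numbered 0 with edgeR (1002 at an unadjusted p under 0.05), but 44 with DESeq2 and 11 with voom, and 0 to 9 (without control-compound animal 6) when each kidney was left out. The cause was not tested. No paired analysis was possible because the groups compared share no animal number. Levels of Agtr1b, Agtr2 and Cma1 are limited by counts near 0.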

Other observations

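Ratios of counts within a library do not depend on its scaling. The ratios were chosen after the values were seen, and p-values were adjusted over the 6 comparisons computed, of which 4 are given. Ren1 over Agt ran from 0.304 to 0.484 in Control and from 0.286 to 0.991 in LOY kidneys (log2 difference 0.32; exact permutation p = 0.281, adjusted p = 0.671). With the control compound it ran from 0.392 to 1.09 and with ABT263 from 0.673 to 1.35 (log2 difference 0.53; exact permutation p = 0.257, adjusted p = 0.671). Mme over Ace, the tubular peptidase over the converting enzyme, differed by -0.27 with LOY (exact permutation p = 0.336, adjusted p = 0.671) and by -0.12 with ABT263 (exact permutation p = 0.629, adjusted p = 0.754). The spread of Ren1 over Agt was wider among LOY kidneys (log2 SD 0.63) than among Control kidneys (log2 SD 0.25). The highest LOY ratio, 0.991, was that of animal 10 (1680 counts of Ren1 and 1695 of Agt). The medians were 0.376 in LOY and 0.331 in Control kidneys. The ratio was not computed without animal 10, and the difference in spread was not tested.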
